A study of Mus musculus with 36 samples.

Results

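Microglia that did not carry CD11c were compared between the hippocampus of APP mice and that of wild-type (WT) mice. The comparison took the libraries titled as CD11c-negative hippocampus, 12 of 36 in the series, and summed them by the animal number in the title to 4 APP and 4 WT replicates. They held 864 of the 2657 cells kept in the series, 426 of APP and 438 of WT mice. APP mice were APP/PS1 double transgenics, which carry human amyloid-pathway transgenes and deposit amyloid with age. WT mice were the controls, and no source used here names their strain. All mice were male and 6 months old, and all received the same cold mechanical dissociation and the same sort, which took nucleated (DRAQ5-positive), live (DAPI-negative) cells with high CD11b, intermediate CD45 and no CD11c. Single cells were sorted into plates and sequenced with a Smart-seq2-based protocol. That same-numbered libraries are 1 animal is read from the titles. The edgeR p-values below rest on a spread estimated over all 23 replicates of the 6 groups in the series, not over these 8 alone. Some of the 23 come from the same numbered animal.

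Microglia are the resident macrophages of the brain. In mice with amyloid plaques, microglia in contact with a plaque lower homeostatic genes such as P2ry12 and Tmem119 and raise a disease-associated set that includes Itgax, the gene of the integrin CD11c. CD11c-negative cells are therefore mostly those that have not entered that state, and the comparison with WT cells asks what differs in them when amyloid is present in the tissue.

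Replicates held 1811995 to 3966045 counts in WT and 1127618 to 3576536 in APP mice, with 69 to 145 cells each. All 10 microglial markers had counts in both groups. Their summed level was 11930 to 13355 CPM in WT and 15292 to 16979 CPM in APP replicates (two-sided exact permutation p = 0.0286). CPM is the usual count unit that scales each replicate to 1 common total. Levels of single genes below are also divided by a scaling factor, so they differ in unit from these sums. Cells with counts for at least 2 markers of another type were few, 15 of 864. Of the marker lists, border-associated macrophages had counts for 2 of 10 genes in each group (0 to 76.4 CPM in WT, 0 to 12.1 CPM in APP), with Pf4, Lyve1, Cbr2, Cd209f, Clec10a and Folr2 at 0. Monocytes, neutrophils and dendritic cells had 2 of 12 in WT (0 to 16.8 CPM) and 3 of 12 in APP (13.6 to 81.1 CPM), with Ly6c2, S100a8 and S100a9 among those at 0. Lymphocytes had 1 of 9 in WT and 0 in APP, and red blood cells 0 of 5 in both. Summed neuronal markers ran from 0 to 138 CPM in WT and 1.77 to 107 CPM in APP, and oligodendrocyte markers from 0 to 57.0 and from 12.9 to 133 CPM. Summed astrocyte markers ran from 231 to 484 CPM in WT and 175 to 384 CPM in APP, with Aqp4 and Aldh1l1 at 0, and endothelial markers from 6.77 to 103 and from 7.58 to 51.4 CPM, with Cldn5 and Flt1 at 0. None of the tested genes of these lists passed the test between the genotypes.

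The WT hippocampal libraries stood apart in complexity. When every cell was thinned to 5000 counts, WT replicates 1 to 4 had 464, 424, 468 and 388 detected genes per cell and APP replicates 613, 583, 651 and 640. The groups did not overlap, and the difference of 186 genes gave p = 0.0286 in a two-sided exact permutation test, the smallest p that 4 against 4 allows. The other CD11c-negative groups, from cortex, spanned 470 to 658 genes. Mitochondrial counts made up 0.591 to 0.722% of the total in WT and 1.10 to 1.20% in APP replicates (exact permutation p = 0.0286), and the 100 most abundant genes took 28.8 to 30.8% of WT counts and 22.0 to 25.4% of APP counts (exact permutation p = 0.0286). A set number in the titles is 7 or 8 for WT and 9 or 10 for APP libraries, so genotype and set cannot be told apart. Of the 12 libraries, 4 carry a genotype tag that contradicts the title, and without them the test below called 40 genes higher and 144 lower, against 49 and 177 with them. Of the well barcodes 79 of 80 occur in more than 1 library. Of 66 library pairs 0 were identical.

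**Figure D1:**
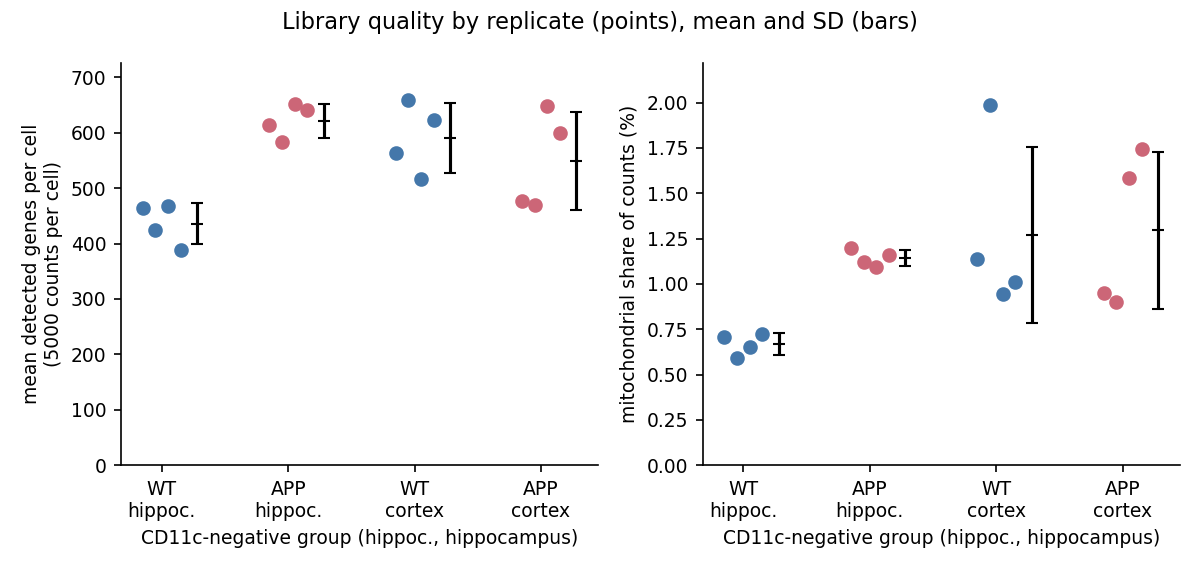
Mean detected genes per cell after thinning to 5000 counts (left) and mitochondrial percent of counts (right) for each replicate (points) of the 4 CD11c-negative groups, with the mean and SD (bars, n = 4). WT hippocampus lies at 388 to 468 genes and at most 0.722% mitochondrial counts, below all 4 APP hippocampal replicates in both.

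Genes called lower in APP cells were mostly abundant ones, among them Notch2, Wtap and Kmt2d, and genes called higher were mostly rare ones, among them Elf2. Of 14892 genes tested with edgeR's quasi-likelihood test and Benjamini-Hochberg adjustment, 226 passed an adjusted p of 0.05 (1.52%), 177 of them lower in APP cells (1.19%) and 49 higher (0.329%). At an unadjusted p of 0.05 the number was 2353 (15.8%). Replicate values did not overlap between the genotypes for 694 genes (4.66%), among them 157 of the 177 lower and 36 of the 49 higher genes. Lower genes were abundant, with a median level of 942 CPM over the 8 replicates against 13.6 CPM for all genes tested, and their median log2 fold change was -1.15. Higher genes had a median level of 23.3 CPM, and 35 of 49 had a WT mean under 1 CPM.

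The fold change depended on the level of the gene. Its median was 0.62 on the log2 scale for 5280 genes under 10 CPM, 0.03 for 2564 genes from 50 to 200 CPM, -0.54 for 196 genes from 500 to 1000 CPM and -0.89 for 132 genes at 1000 CPM or more. In the last range 84 of 132 genes were called lower (63.6%) and 2 higher, and from 500 to 1000 CPM 50 of 196 were called lower and 3 higher. The lower members of the lists below are mostly abundant genes, so their counts are to be read against these shares, not against 1.19%.

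**Figure D2:**
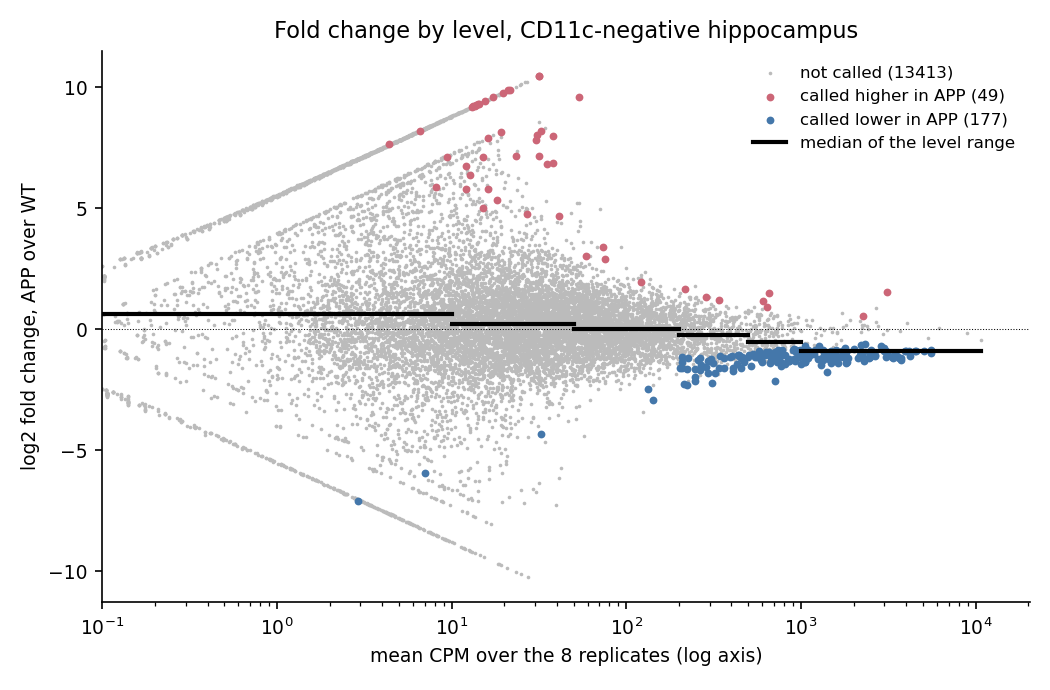
Log2 fold change of APP over WT against the mean CPM over the 8 replicates (log axis), 1 point a gene with a count in these replicates and at least 0.1 CPM, with called genes in colour and the median of each level range as a bar. Genes called lower lie mostly above 200 CPM, and the medians run from 0.62 at the left to -0.89 at the right.

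The split of calls also depended on the scaling of the libraries. Main values, the CPM of single genes and their overlap among them, used TMM factors over all genes. These factors were 0.855 to 1.02 in WT and 1.09 to 1.15 in APP replicates. With RLE factors 57 genes were higher and 139 lower, with raw totals 69 and 113, and with TMM factors from genes of 500 CPM or more 185 and 34. These scalings moved the median of all genes by 0.13, 0.25 and 0.63 on the log2 scale, so values below are relative to the bulk of genes. Of the 177 lower genes 34 were called lower under all 4 scalings, and of the 49 higher genes 48 were called higher. With the detected genes per cell as a covariate, 177 of 177 stayed below 0 and 49 of 49 above it, with 61 and 11 called. Without the 15 cells that carried markers of another type, 26 genes were higher. Lower genes were seen in nearly as many cells: over the 36 described here, the median share of cells with a count after thinning was 58.2% in WT and 51.5% in APP cells, while the median level was 1544 and 735 CPM. In APP hippocampus 176 of the 177 lower genes had a mean below both cortical CD11c-negative groups, and in WT hippocampus 149 of them had a mean above both. These genes were called on the same hippocampal values, so both counts are partly fixed by that choice.

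Genes of the RNA m6A pathway were among those that fell. Writers add a methyl group to adenosines in messenger RNA, erasers take it off, and readers bind it and steer the transcript to decay or translation. Of 18 tested genes of this list 4 were lower and 0 higher: Wtap and Rbm15, which guide the writer complex to its sites, the eraser Alkbh5, and the reader Ythdf2, which promotes decay. These are abundant genes, and over all genes 84 of 132 at 1000 CPM or more and 50 of 196 from 500 to 1000 CPM were called lower. The count is therefore not read as a result about the pathway. The list's median log2 fold change was -0.22, against 0.01 for all genes, and 0.37 with the scaling by abundant genes. The promoters of the 4 lower m6A genes are shown because each was called lower, and those of the sterol genes Insig1 and Cyp51 because they moved in opposite directions. Each is 250 bases before to 50 after a RefSeq transcript start on GRCm38.p6, written 5′ to 3′ on the gene's strand: Wtap at chr17:12992494-12992793 (minus), Rbm15 at chr3:107333240-107333539 (minus), Alkbh5 at chr11:60537433-60537732 (plus), Ythdf2 at chr4:132212207-132212506 (minus), Insig1 at chr5:28071162-28071461 (plus) and Cyp51 at chr5:4104648-4104947 (minus). Capitals mark GC boxes (GGGCGG) and CCAAT boxes (CCAAT) on either strand.

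Wtap: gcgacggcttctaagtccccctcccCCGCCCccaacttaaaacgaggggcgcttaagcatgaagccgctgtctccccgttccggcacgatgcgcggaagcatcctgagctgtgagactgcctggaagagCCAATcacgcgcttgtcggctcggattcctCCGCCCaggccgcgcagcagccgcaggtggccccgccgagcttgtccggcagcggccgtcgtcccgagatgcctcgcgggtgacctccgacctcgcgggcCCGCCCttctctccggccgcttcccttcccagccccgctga
Rbm15: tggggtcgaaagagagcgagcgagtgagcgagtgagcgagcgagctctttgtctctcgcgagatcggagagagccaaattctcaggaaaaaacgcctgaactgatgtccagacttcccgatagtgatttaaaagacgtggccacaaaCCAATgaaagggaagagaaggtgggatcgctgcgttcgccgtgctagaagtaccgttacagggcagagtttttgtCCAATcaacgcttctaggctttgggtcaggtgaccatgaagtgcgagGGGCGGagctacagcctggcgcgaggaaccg
Alkbh5: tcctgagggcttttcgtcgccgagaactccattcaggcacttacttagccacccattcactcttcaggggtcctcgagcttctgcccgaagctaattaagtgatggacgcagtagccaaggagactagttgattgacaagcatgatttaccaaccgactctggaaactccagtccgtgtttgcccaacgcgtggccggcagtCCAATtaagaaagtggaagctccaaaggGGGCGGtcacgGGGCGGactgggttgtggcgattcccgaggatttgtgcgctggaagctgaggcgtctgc
Ythdf2: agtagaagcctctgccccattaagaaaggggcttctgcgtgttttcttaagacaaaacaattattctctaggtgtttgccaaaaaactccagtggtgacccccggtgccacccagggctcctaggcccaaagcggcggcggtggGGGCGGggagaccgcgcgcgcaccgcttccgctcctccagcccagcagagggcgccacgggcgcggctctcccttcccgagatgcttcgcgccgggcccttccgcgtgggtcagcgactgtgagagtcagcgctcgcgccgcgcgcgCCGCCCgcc
Insig1: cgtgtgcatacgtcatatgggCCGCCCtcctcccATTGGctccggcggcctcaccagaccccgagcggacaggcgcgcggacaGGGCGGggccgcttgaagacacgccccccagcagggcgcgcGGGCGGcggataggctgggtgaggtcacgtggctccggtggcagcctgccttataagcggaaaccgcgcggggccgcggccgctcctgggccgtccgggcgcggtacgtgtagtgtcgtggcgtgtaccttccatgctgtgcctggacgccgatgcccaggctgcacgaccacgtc
Cyp51: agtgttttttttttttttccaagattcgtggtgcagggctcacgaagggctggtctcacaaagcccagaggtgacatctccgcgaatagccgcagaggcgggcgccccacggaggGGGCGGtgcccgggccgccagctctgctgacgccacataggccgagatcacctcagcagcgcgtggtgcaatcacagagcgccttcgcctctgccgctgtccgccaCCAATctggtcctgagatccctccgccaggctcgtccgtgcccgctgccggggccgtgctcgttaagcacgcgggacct

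A GC box occurs in each of the 6 windows and a CCAAT box in each except that of Ythdf2. Over the promoters of genes tested that RefSeq matched, 9637 in number, 64.4% hold a GC box and 38.9% a CCAAT box, and over the 136 matched genes called lower the shares were 69.9 and 41.9%. Neither an ETS site (CCGGAAG) nor a sterol regulatory element (TCACNCCAC) matched on either strand of these 6 windows, and 18.8 and 1.04% of tested genes' promoters hold one. The marked motifs do not overlap each other in the windows shown.

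Wtap (chr17:12966796-12994169, GRCm38) had 2615, 2414, 3235 and 2335 CPM in WT replicates 1 to 4 and 965, 1026, 1153 and 1024 CPM in APP replicates. Every APP replicate lay below every WT replicate, and the log2 fold change was -1.35 ± 0.16 (SE, n = 4 per group), edgeR adjusted p = 2.2e-05. Ythdf2 had 1898, 1061, 1742 and 1386 CPM in WT and 635, 712, 644 and 404 CPM in APP replicates, again without overlap (-1.35 ± 0.22, adjusted p = 0.000567). Rbm15 fell from 1127 ± 233 to 436 ± 86.9 CPM (SD; adjusted p = 0.00227) and Alkbh5 from 1423 ± 233 to 665 ± 110 CPM (adjusted p = 0.000158). Only Wtap among the 4 was called lower under all 4 scalings. Each kept its call when any 1 of the 8 replicates was left out.

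Notch signalling members fell as well. Notch2 is a receptor whose cleaved intracellular part acts on transcription, Adam10 is the membrane protease that makes the first activating cut, and Maml2 is a coactivator of the cleaved receptor. These were the 3 lower and 0 higher of 19 tested genes, with a list median of -0.30 that turned to 0.23 with the scaling by abundant genes. They too are abundant, and 63.6% of all genes at 1000 CPM or more were called lower. Notch2 (chr3:98013527-98150361) had 5108, 4252, 5808 and 5243 CPM in WT replicates and 2003, 1893, 2246 and 2760.5 CPM in APP replicates. The log2 fold change was -1.20 ± 0.14 (adjusted p = 2.19e-05), and all 4 APP replicates lay below all 4 WT replicates. Adam10, which also cuts the amyloid precursor at its non-amyloid site, fell from 3221 ± 317 to 1802 ± 242 CPM (adjusted p = 0.000802), and Maml2 from 1992 ± 276 to 934 ± 169 CPM (adjusted p = 0.00182).

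TGF-beta signalling, which microglia need to keep their homeostatic state, had 1 lower and 0 higher of 19 tested genes, with a median of 0.54, and 0 lower and 1 higher with the scaling by abundant genes. The lower one was Skil, a repressor of SMAD-driven transcription, at 3845, 3376, 4539 and 2644 CPM in WT and 1447, 1906, 1709 and 1675 CPM in APP replicates (-1.10 ± 0.16, adjusted p = 0.000178). Of all genes at 1000 CPM or more, 63.6% were called lower. The receptor gene Tgfbr1 stood at 863 ± 220 CPM in WT and 1037 ± 262 CPM in APP cells and did not pass the test (0.27 ± 0.21, adjusted p = 0.667).

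Chromatin genes that fell included a histone methyltransferase of enhancers and a nuclear receptor coactivator. Of 35 tested histone methylation and demethylation genes 2 were lower and 0 higher (median 0.17), and of 39 tested acetylation and remodelling genes likewise 2 and 0 (median 0.23). With the scaling by abundant genes these became 1 lower and 2 higher, and 1 lower and 0 higher. The lower genes of both lists lie at 1000 CPM or more, where 63.6% of all genes were called lower. Kmt2d, which methylates H3K4 at enhancers, had 3415, 3654, 3893 and 3499 CPM in WT and 1861, 1373, 1712 and 1974 CPM in APP replicates. The groups lay far apart relative to their spread, at -1.06 ± 0.11 on the log2 scale (adjusted p = 2.19e-05). Nsd3, an H3K36 methyltransferase, fell from 1519 ± 189 to 592 ± 222 CPM (adjusted p = 0.00179). Ncoa3, a coactivator of nuclear receptors, fell from 3435 ± 399 to 1535 ± 237 CPM (adjusted p = 0.000203), and the acetyltransferase gene Crebbp from 1301 ± 140 to 800.2 ± 79 CPM (adjusted p = 0.0322). Kmt2d and Ncoa3 were lower under all 4 scalings, while Crebbp lost its call without APP1, APP2, APP3, WT1 or WT3, with adjusted p up to 0.11. Kdm6b, an H3K27 demethylase, stood at 1202 ± 298 and 659 ± 242 CPM and missed the threshold (-0.87 ± 0.23, adjusted p = 0.0635).

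RNA splicing had 2 lower and 0 higher of 32 tested genes (median 0.07), 2 lower and 2 higher with raw totals, and 0 lower and 2 higher with the scaling by abundant genes. Both are components of the splicing machinery rich in serine and arginine: Srsf2 fell from 5165 ± 544 to 2815 ± 535 CPM (adjusted p = 0.000567) and Srrm2 from 3781 ± 375 to 2224 ± 316 CPM (adjusted p = 0.0026). Their log2 fold changes with the scaling by abundant genes were -0.27 and -0.15, and neither was called. Both lie above 1000 CPM, where 63.6% of all genes were called lower. Rbm39, of the same list, stood at 523 ± 181 and 826 ± 126 CPM without passing the test (adjusted p = 0.188).

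Genes of the actin and microtubule cytoskeleton, on which the motility of microglial processes rests, had 4 lower and 0 higher of 50 tested members (median 0.07). All 4 lie above 500 CPM. Over all genes 84 of 132 at 1000 CPM or more and 50 of 196 from 500 to 1000 CPM were called lower. With the scaling by abundant genes the list had 0 lower and 3 higher (median 0.69), and Tubb5, Actr2, Rhoa and Myh9 were no longer called. Tubb5, a beta-tubulin, had 4038, 3544, 4352 and 4416 CPM in WT and 2141, 1784, 2030 and 2460 CPM in APP replicates (-0.96 ± 0.13, adjusted p = 0.000131). Actr2, a subunit of the ARP complex that nucleates branched actin, fell from 2962 ± 543 to 1375 ± 179 CPM (adjusted p = 0.000405). Rhoa, the GTPase that drives contractility, had 826, 1583, 1118 and 656 CPM in WT and 344, 425, 416 and 451 CPM in APP replicates (-1.35 ± 0.27, adjusted p = 0.00551), and Myh9, non-muscle myosin, fell from 1212 ± 220 to 671 ± 34.1 CPM (adjusted p = 0.00382). The WT replicates of Rhoa were more spread than those of APP, yet the groups did not overlap. Tmsb4x, which binds free actin, was at 1923 ± 453 and 2448 ± 98.3 CPM (adjusted p = 0.321).

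**Figure D3:**
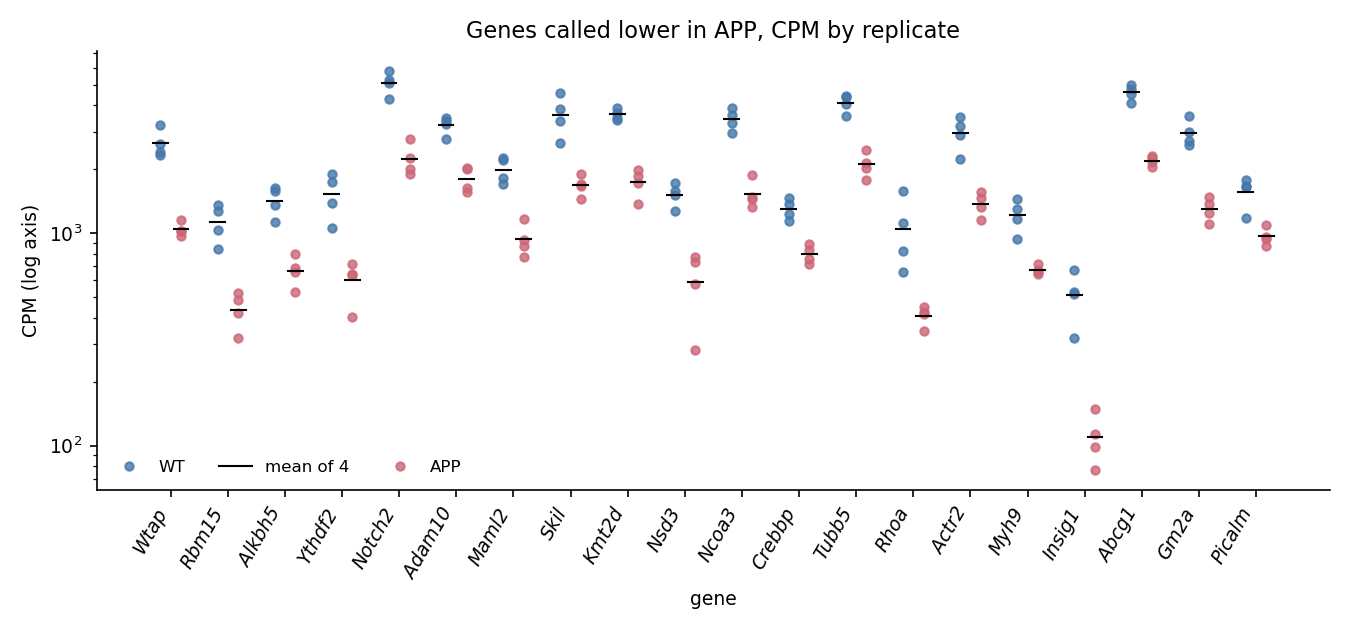
CPM (log axis) of 20 genes called lower in APP cells, 1 point a replicate (4 WT, 4 APP) with the group mean as a bar. In each gene the 4 APP replicates lie below the 4 WT replicates, as for Notch2 at 1893 to 2760.5 CPM in APP and 4252 to 5808 CPM in WT.

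Sterol genes moved in both directions, with 2 lower and 1 higher of 24 tested genes of cholesterol synthesis and handling (median -0.35, and 0.28 with the scaling by abundant genes). Insig1, which holds the sterol sensor in the endoplasmic reticulum when cholesterol is ample, had 529.9, 320.5, 668 and 517 CPM in WT and 149, 113, 98.4 and 76.9 CPM in APP replicates. This was -2.21 ± 0.30 on the log2 scale (adjusted p = 9.02e-05), and Insig1 was called lower under each of the 24 alternatives tried. Abcg1, which exports cholesterol to lipoproteins, fell from 4601 ± 380 to 2190 ± 123 CPM (adjusted p = 0.000212). It lies above 1000 CPM, where 63.6% of all genes were called lower. Cyp51, an enzyme of cholesterol synthesis, was higher, yet on 1 cell with a count in WT and 10 in APP mice: WT replicates had 0.282, 0, 0 and 0 CPM and APP replicates 0, 62.3, 32.7 and 58.1 CPM (adjusted p = 0.0322). Its counts over TMM-scaled totals were 267 times as high in APP as in WT cells (95% counting interval 47.6 to 10583). The groups overlapped, and the call was lost without any of the replicates except APP1 (adjusted p up to 0.0992). Soat1, which esterifies cholesterol, stood at 435 ± 105 and 250 ± 77.6 CPM (adjusted p = 0.153). Apoe, the main lipoprotein of the brain, had 240.3, 103, 329 and 794 CPM in WT and 435, 248, 346 and 65.4 CPM in APP replicates, with full overlap (adjusted p = 0.826).

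Lysosomal genes had 1 lower and 0 higher of 33 tested members (median 0.25), and 1 lower and 7 higher with the scaling by abundant genes. Gm2a, the activator protein for the breakdown of GM2 ganglioside, fell from 2964 ± 439 to 1299 ± 165 CPM (-1.19 ± 0.17, adjusted p = 0.000159) and was lower under all 4 scalings. At its level, 1000 CPM or more, 63.6% of all genes were called lower. Other abundant members had positive values. Psap, the precursor of the saposins, had 729, 691, 623 and 677 CPM in WT and 965, 830, 1151 and 1180 CPM in APP replicates (0.60 ± 0.17, adjusted p = 0.0898), and passed the threshold in 8 of 24 alternatives, with RLE factors among them (adjusted p = 0.0327). The cathepsin gene Ctss stood at 2431 ± 343 and 2972 ± 82.9 CPM (0.29 ± 0.12, adjusted p = 0.253). Neither of these 2 genes overlapped between the groups.

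Among orthologues of Alzheimer risk genes 2 of 24 tested were lower and 0 higher (median 0.02), against 0 lower and 2 higher with the scaling by abundant genes: Adam10, above, and Picalm, an adaptor of clathrin-coated pits. Picalm had 1645, 1771, 1670 and 1178 CPM in WT and 1094, 959, 874 and 939 CPM in APP replicates (-0.70 ± 0.15, adjusted p = 0.0145). With the scaling by abundant genes its log2 fold change was -0.06. Picalm and Adam10 lie at 1000 CPM or more, where 63.6% of all genes were called lower. Trem2, the lipid-sensing receptor that microglia need to respond to plaques, was at 1260 ± 121 and 1306 ± 207 CPM (adjusted p = 1), and the lysosomal growth factor gene Grn at 593 ± 109 and 864 ± 133 CPM (adjusted p = 0.258).

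Outside these lists, the largest falls among genes with at least 50 CPM in WT and no overlap between the groups were of various kinds. Larger fitted falls of called genes with overlapping replicates, such as Ncam1 (-7.08), Spock1 (-5.94) and Akap5 (-4.31), rest on WT means of 5.83, 13.9 and 61.7 CPM, and these 3 were chosen after their values were seen. Ncam1 had an APP mean of 0, so its fitted value bounds no fold. Sept10, a septin of the cortical cytoskeleton, had 1379, 1224, 1140.1 and 912 CPM in WT and 264, 166, 462 and 162 CPM in APP replicates (-2.14 ± 0.30, adjusted p = 0.000136). Klhl9, an adaptor of a ubiquitin ligase, had 2221, 2453, 2254 and 1712 CPM in WT and 719.8, 528, 639 and 688 CPM in APP replicates (-1.75 ± 0.25, adjusted p = 0.000156). Both were called lower under each of the 24 alternatives. Sdc4, a heparan sulfate proteoglycan, fell from 405 ± 115 to 125 ± 32.9 CPM (adjusted p = 0.000413), Lyrm4, a factor of iron-sulfur cluster assembly, from 459.8 ± 118 to 130.3 ± 51.8 CPM (adjusted p = 0.00195), and the zinc-finger gene Zfp317 from 403 ± 75.9 to 91.3 ± 69.1 CPM (adjusted p = 0.0099). The pseudogene Zfp862-ps fell from 391 ± 55.7 to 101 ± 49.8 CPM (adjusted p = 0.000754), and may share reads with its parent gene.

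A further 5 genes of this kind were called less firmly. Ttyh2, an anion channel gene, fell from 252 ± 167 to 32.5 ± 38.9 CPM (adjusted p = 0.0334), with WT2 at 500.3 CPM, and lost its call without APP1, APP2, APP4 or WT2. Rcor3, a corepressor, went from 224 ± 129 to 40.6 ± 28.8 CPM and lost its call without APP1, APP2, APP3 or WT4. Tmem263 fell from 369 ± 127 to 74 ± 68.4 CPM and lost it without APP1 or APP2. Amt, of the glycine cleavage system, went from 357 ± 101 to 73.5 ± 58.6 CPM and lost it without APP1, APP2, APP4, WT1 or WT3, and Txnl4b, a splicing factor, from 632 ± 175 to 189 ± 106 CPM and lost it without APP1, APP4, WT1, WT2 or WT3. Adjusted p among these leave-outs reached 0.138.

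Genes that rose were mostly close to absent from WT cells. Elf2, an ETS transcription factor (chr3:51252720-51340663), had 0.282, 0, 0 and 0 CPM in WT and 116, 72.2, 113 and 128 CPM in APP replicates. Counts were seen in 1 WT cell and 46 APP cells, and after thinning in 0 and 7.09% of cells, where 0 of 427 WT cells allows a share of up to 0.703%. Its counts over TMM-scaled totals were 1039 times as high in APP cells (95% counting interval 186 to 41077, adjusted p = 6.16e-05). Elf2 was called higher under each of the 24 alternatives. In cortex Elf2 was at 38.6 ± 23.2 CPM in WT and 37.0 ± 41.4 CPM in APP cells. Both cortical means lay above every WT and below every APP hippocampal replicate. The medians of the 49 higher genes were 0.211 CPM in WT hippocampus, 46.4 in APP hippocampus, 37.0 in WT cortex and 36.3 in APP cortex. Of the 49, 46 had a WT hippocampal mean below both cortical means. All 49, Elf2 among them, were called on the same hippocampal values, so this order is partly fixed by the choice.

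Hint3 and Pigq had 0 WT counts. Hint3, a nucleotide hydrolase, had 36.2, 97.4, 28.4 and 92.4 CPM in APP replicates (adjusted p = 0.0165). This was 154 times a floor of 3 counts over the WT group. Its 508 APP counts came from 14 cells, so counts are not independent and such a floor bounds no fold. Pigq, of glycolipid anchor synthesis, had 22.4, 7.95, 44.9 and 179 CPM from 23 APP cells, 149 times the same floor (adjusted p = 0.00677). Slc2a8, an intracellular glucose transporter, had counts in 1 WT and 29 APP cells (ratio 355, counting interval 97.9 to 2934, adjusted p = 0.00132). Med22, of the Mediator complex, had them in 1 and 19 cells (195, interval 66.5 to 949, adjusted p = 0.00621) and Lrif1, a nuclear receptor partner, in 1 and 17 cells (191, interval 52.5 to 1580, adjusted p = 0.0235).

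Others had WT counts in 1 or more replicates, all at low levels. Qars, the glutamine tRNA synthetase, was at 0.384 ± 0.259 CPM in WT and 63.2 ± 52.2 CPM in APP cells (adjusted p = 0.00118). Mtf2, of the polycomb complex, was at 0.493 ± 0.986 and 70.2 ± 56.2 CPM (adjusted p = 0.01), and Prkacb, a catalytic subunit of protein kinase A, at 0.537 ± 0.799 and 75.9 ± 70.9 CPM (adjusted p = 0.0146). Tmod3, which caps actin filaments, was at 3.06 ± 4.7 and 78.9 ± 45 CPM (adjusted p = 0.0157), and the mitochondrial protein gene C1qbp at 1.88 ± 1.52 and 51.8 ± 25.9 CPM (adjusted p = 0.0491). These 5 genes were counted in 2 to 7 WT cells and 19 to 40 APP cells, so few cells carry each value.

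A smaller number of risers had higher levels in WT cells. Vps35, a core subunit of the retromer that sorts cargo out of endosomes, had 25.4, 0.558, 17.9 and 7.17 CPM in WT and 102, 86.8, 98.2 and 133 CPM in APP replicates (3.03 ± 0.70, adjusted p = 0.022). Cotl1, an actin-binding protein of leukocytes, had 85.9, 58.6, 29.8 and 24.6 CPM in WT and 155, 294, 138 and 182 CPM in APP replicates (1.95 ± 0.47, adjusted p = 0.0281), and Ckb, brain-type creatine kinase, 82.5, 53.6, 112 and 165 against 313, 484, 256 and 258 CPM (1.67 ± 0.39, adjusted p = 0.0216). In all 3 the replicates of the genotypes did not overlap. Mapre2, a protein of growing microtubule ends, rose from 17.8 ± 10.7 to 133 ± 28 CPM (adjusted p = 0.0234) and Adprh, an ADP-ribose hydrolase, from 12.7 ± 11.8 to 134 ± 49.4 CPM (adjusted p = 0.0436). Vps35, Mapre2 and Adprh had counts in 11, 9 and 12 of 438 WT cells, so few cells carry their WT values. Fth1, the ferritin heavy chain that stores iron, had 552, 405, 442 and 345 CPM in WT and 682, 929.7, 1011 and 714 CPM in APP replicates (0.94 ± 0.18, adjusted p = 0.00459). The ribosomal RNA model CT010467.1 rose from 1596 ± 191 to 4588 ± 1657 CPM (1.52 ± 0.22, adjusted p = 0.000201).

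Of the higher genes named in the text 9 kept their call when any 1 replicate was left out. Lrif1 lost its call without APP4, WT2, WT3 or WT4, Prkacb without WT2 or WT3, Tmod3 without WT2, Vps35 without APP1, APP4 or WT4, Mapre2 without APP1, APP2, APP4, WT2 or WT3, and Ckb without APP2, WT1 or WT2. C1qbp lost it without any except WT4, Adprh without any except WT3, Cotl1 without any except APP3 and WT1, Fth1 without APP3, and Ifih1 without any except APP1 and APP2. The adjusted p rose to 0.126 at most among these, for Cotl1.

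**Figure D4:**
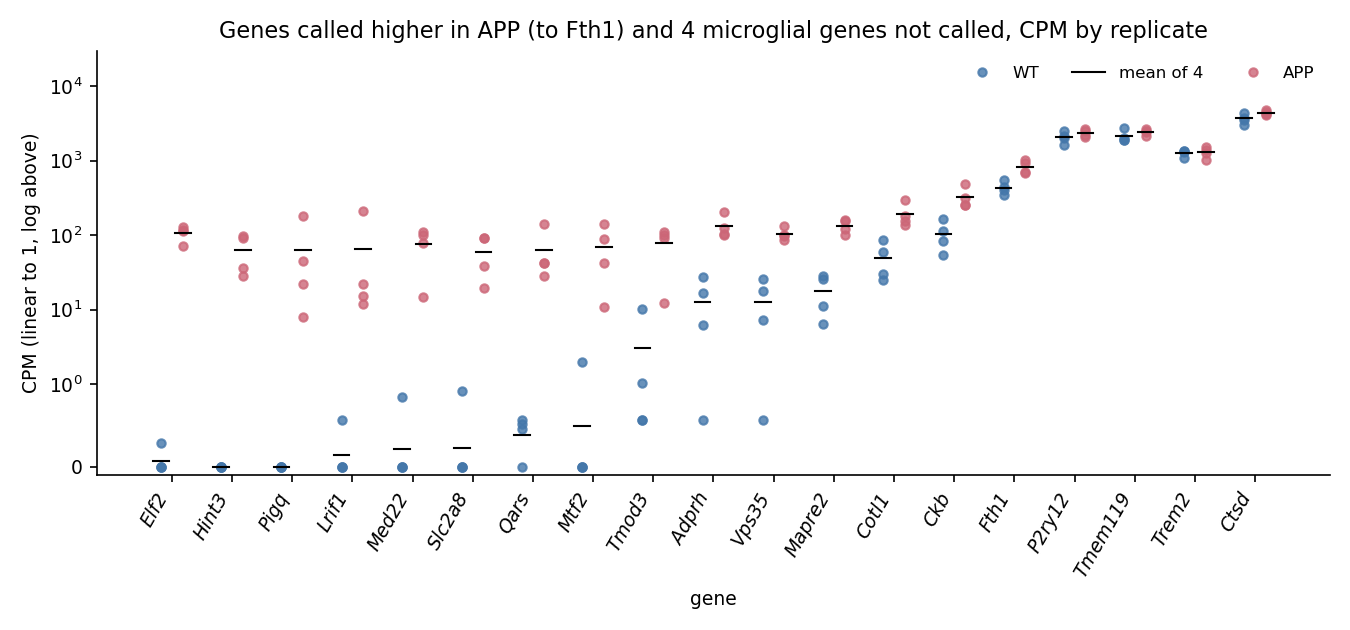
CPM (linear to 1, log above) by replicate of 15 genes called higher in APP cells, from Elf2 to Fth1, and of 4 microglial genes that were not called, with the group mean as a bar (n = 4). The WT replicates of Elf2 lie at 0.282 CPM or below and those of P2ry12 and Tmem119 at 1618 to 2770.1 CPM, within or near the range of the APP replicates.

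Microglial state markers gave few calls with TMM over all genes, and more with another scaling. Of 25 tested homeostatic genes 0 were higher and 0 lower (5 at an unadjusted p under 0.05), but 10 were higher with the scaling by abundant genes and 1 with raw totals, with a median log2 fold change of 0.18 that lay between 0.18 and 0.81 over the 4 scalings. P2ry12, the receptor that steers processes to sites of damage, had 2030.5, 2480, 2164 and 1618 CPM in WT and 2248, 2070, 2495 and 2687 CPM in APP replicates (adjusted p = 0.668). Tmem119 had 2025, 1873, 2770.1 and 1924 CPM against 2175, 2479, 2401 and 2696 CPM (0.18 ± 0.14, adjusted p = 0.668), and the most abundant gene of the list, Cst3, 9437 ± 641 against 8410.0 ± 492 CPM (adjusted p = 0.322). P2ry12 and Tmem119 overlapped between the groups, although more APP cells had a count: after thinning, Tmem119 was seen in 64.2% of WT and 86.8% of APP cells. Irf8, a transcription factor of the microglial lineage, stood at 369 ± 109 and 703 ± 229 CPM (adjusted p = 0.149), and Slc2a5, a fructose transporter, at 361 ± 30.5 and 601 ± 76.4 CPM without overlap (adjusted p = 0.215).

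Disease-associated genes with a low baseline had 0 calls among 17 tested (5 at an unadjusted p under 0.05, median -0.03), and the early and lysosomal part had 1 higher, Fth1, of 19 (median 0.25). That second list had 10 higher with the scaling by abundant genes, and the first had 0. Itgax, the gate's own gene, had 3.66, 0, 0 and 0 CPM in WT and 0, 31.8, 2.28 and 0.818 CPM in APP replicates, from 1 and 7 cells (adjusted p = 0.372). Clec7a had counts in 1 WT cell and 4 APP cells (adjusted p = 0.165), and Igf1 in 9 WT cells and 1 APP cell (adjusted p = 0.109). Ctsd stood at 3695 ± 578 and 4403 ± 341 CPM (adjusted p = 0.405) and Timp2 at 145 ± 54.3 and 304 ± 111 CPM (adjusted p = 0.208).

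Interferon response genes had 1 higher and 0 lower of 22 tested (median 0.44). The higher one was Ifih1, a sensor of double-stranded RNA (adjusted p = 0.0292). It had 0 WT counts and 0, 4.64, 56.8 and 51.5 CPM in APP replicates, from 7 cells. This was 89.0 times the floor used above for genes with 0 WT counts. With so few cells that floor bounds no fold, and the groups overlapped at 0 CPM. Irf9 had 7 WT and 21 APP cells with a count (adjusted p = 0.434). MHC class I genes had 0 calls among 13 (2 at an unadjusted p under 0.05, median 0.25) and 2 higher with the scaling by abundant genes, with the immunoproteasome gene Psmb8 at 77.2 ± 53.9 and 174 ± 44.8 CPM (adjusted p = 0.218), and MHC class II genes 0 among 8 (1 at an unadjusted p under 0.05, median -1.52), with H2-DMb1 at 175 ± 33.6 and 204 ± 26.3 CPM (adjusted p = 0.964).

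C1qa, which starts the classical complement pathway, stood at 1327 ± 513 and 2114 ± 683 CPM (adjusted p = 0.191). Phagocytic and pattern recognition receptors had 0 calls among 21 tested (7 at an unadjusted p under 0.05, median 0.26) and 4 higher with the scaling by abundant genes, with Fcer1g at 925 ± 185 and 1223 ± 215 CPM (adjusted p = 0.331) and the Fc receptor gene Fcgr3 at 452 ± 156 and 706 ± 143 CPM (adjusted p = 0.218). Purinergic signalling had 0 among 10 (2 unadjusted, median 0.38) and 1 higher with the scaling by abundant genes, where the nucleoside transporter gene Slc29a3 was at 133 ± 63.3 and 265 ± 113 CPM (adjusted p = 0.283).

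Inflammatory cytokines, chemokines and NF-kappaB genes had 0 calls among 16 tested (4 at an unadjusted p under 0.05, median -0.35). The monocyte attractant Ccl2 had 112, 0, 37.7 and 0 CPM in WT replicates, from 10 cells, and 0 in all APP replicates (adjusted p = 0.117). Immediate early genes, which rise when cells are stressed by dissociation, had 0 calls among 19 (4 unadjusted, median 0.01). Jund was at 422 ± 113 and 216 ± 56 CPM without overlap (adjusted p = 0.109) and Btg2 at 649 ± 136 and 368 ± 191 CPM (adjusted p = 0.346). Protein folding genes had 0 among 18 (3 unadjusted, median 0.27) and 3 higher with the scaling by abundant genes, with the chaperone gene Hspa5 at 827 ± 211 and 998 ± 289 CPM (adjusted p = 0.707) and Calr at 207 ± 80.1 and 353 ± 82.5 CPM (adjusted p = 0.249).

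Metabolic lists gave no calls in edgeR's test. Oxidative phosphorylation had 0 of 23 tested (0 unadjusted, median 0.25) and glycolysis 0 of 18 (3 unadjusted, median 0.53), with the pyruvate kinase gene Pkm at 99.2 ± 42.2 and 162 ± 21.6 CPM (adjusted p = 0.402) and Ldhb at 380 ± 156 and 609 ± 322 CPM (adjusted p = 0.331). Cell cycle genes had 0 of 16 (4 unadjusted, median 1.79).

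**Figure D5:**
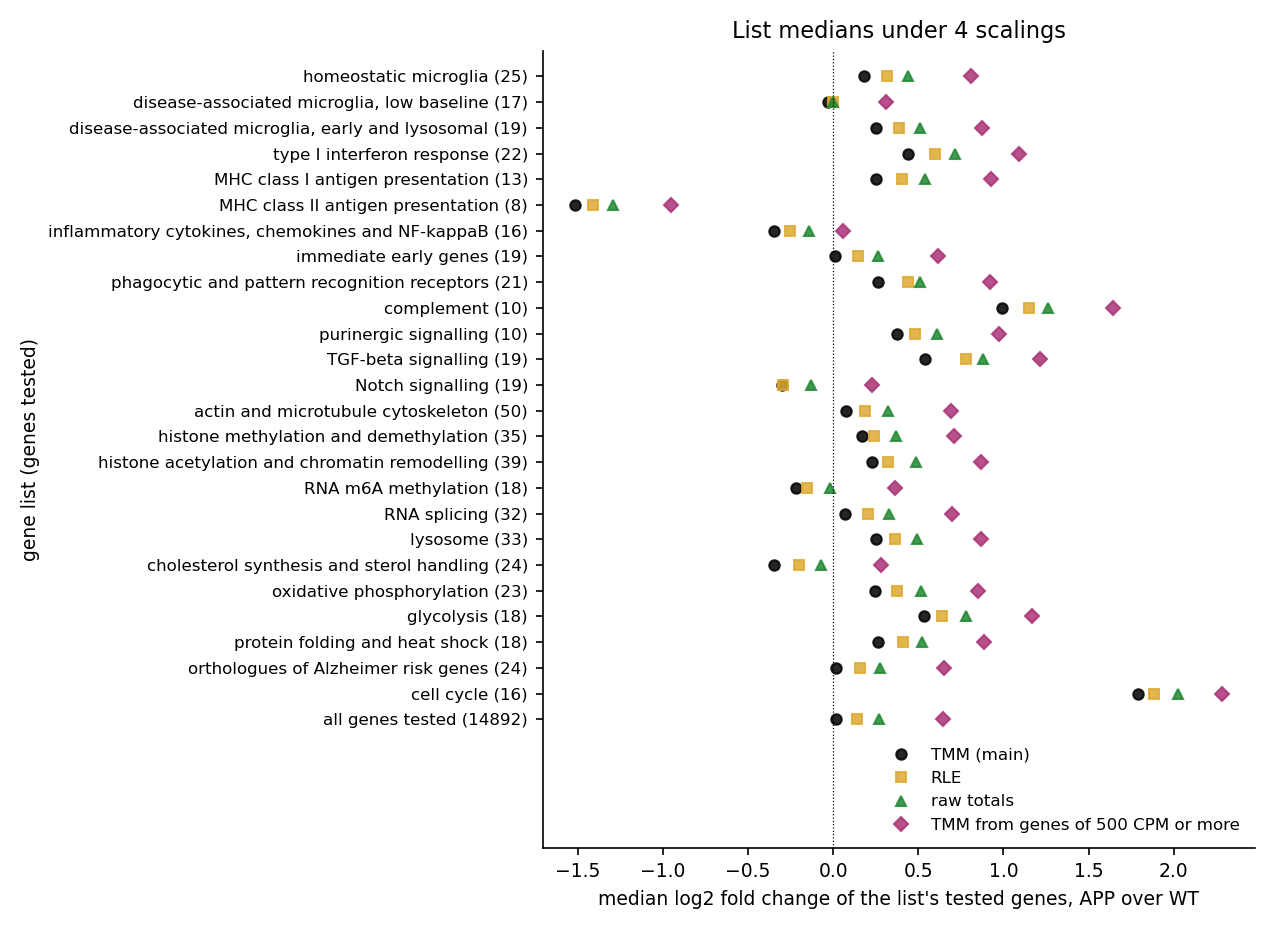
Median log2 fold change, APP over WT, of the tested genes of each list under 4 scalings of the libraries, with the number of genes tested in brackets and all genes at the bottom. The medians of the Notch, m6A and sterol lists lie below 0 with TMM over all genes and above 0 with TMM from genes of 500 CPM or more, at 0.23, 0.37 and 0.28.

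Genes tied to the transgenes were examined because a mouse prion protein promoter, known from the line and not from the labels, drives them. Prnp was called higher, with 1.69, 0, 0 and 0 CPM in WT and 15.5, 0, 24.9 and 86.7 CPM in APP replicates (adjusted p = 0.00705). It rested on 4 WT and 7 APP cells, and APP2 had none, so the groups overlapped. App had 0.845, 132, 53.7 and 0 CPM in WT and 71.1, 111, 95.4 and 76.9 CPM in APP replicates (0.93 ± 1.02, adjusted p = 0.806). Whether transgene reads were counted under either gene was not tested.

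The contrast between genotypes differed from that in cortex. In CD11c-negative cortical cells edgeR called 0 of 14892 genes, with 1354 at an unadjusted p under 0.05 (9.09%), and the interaction of genotype and region was past the threshold for 150 genes (1.01%). In 119 of them the hippocampal effect lay below the cortical one and in 31 above it. Of the 150, 130 were also among the 226 genes called in hippocampus. The interaction contains the hippocampal contrast of the same fit, so these counts are partly fixed by it. By the titles both regions come from the same numbered animals, which that fit treats as independent. With the animal as a block, over the 16 CD11c-negative replicates, 90 genes were called, 88 of them among the 150, and 148 of the 148 that could be tested kept their sign. Dpysl2, a regulator of microtubules, had the smallest p. Its level was 7366, 7111, 7981 and 6837 CPM in WT and 3643, 3558, 3747 and 4112 CPM in APP hippocampus, and 5053 ± 491 and 6286 ± 864 CPM in WT and APP cortex. The hippocampal effect was -0.96 ± 0.11, the cortical one 0.31 ± 0.11, and their difference -1.27 ± 0.15 (adjusted p = 0.00022).

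Kmt2d followed, with cortical levels of 2577 ± 279 in WT and 2923 ± 261 CPM in APP cells and a difference of -1.24 ± 0.16 (adjusted p = 0.00038). Tacc1, a centrosomal protein, stood at 4660 ± 828 and 2066 ± 222 CPM in hippocampus and 3065 ± 403 and 3511 ± 303 CPM in cortex (difference -1.37 ± 0.19, adjusted p = 0.000754). Mcmbp, which handles the replicative helicase, stood at 2276 ± 369 and 1021 ± 230 against 1330 ± 92.6 and 2026 ± 352 CPM (difference -1.76 ± 0.25, adjusted p = 0.000873), and Skil had a difference of -1.53 ± 0.22 (adjusted p = 0.000873). In all 5 the order was the same: WT above APP in hippocampus, and APP above WT in cortex, where no difference passed the test. The 5 were taken for the smallest p of the interaction, so this order is partly fixed by that choice. All 4 m6A genes and all 3 Notch genes that fell were also past the threshold of the interaction, with and without the animal block. Without the block this held for 112 of all 177 lower genes. The interaction contains the hippocampal contrast by which these genes were called, so such counts are partly fixed by that choice. With the detected genes per cell as a covariate the interaction was called for 12 genes.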

How the data were processed

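Per the submitters' processing notes, UMI-tools 0.5.3, HISAT2 2.1.0, featureCounts 1.6.0 and the GRCm38 (mm10) build were used. The authors deposited whole-number counts per gene and cell barcode for each library, without normalization. No source used here states whether reads of 1 molecule were merged, and 91.4% of counts lay in entries of 20 or more, so intervals cover counting error only.

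Barcodes under 200 genes or above 20% mitochondrial counts were removed, which left 864 of 865, with no doublet caller on these sorted wells. Counts were summed per replicate over libraries. edgeR 4.0.16 (R 4.3.3) fitted the 23 replicates of all 6 groups in 1 quasi-likelihood model, after filterByExpr and with TMM factors, and p-values were adjusted by Benjamini-Hochberg over 14892 genes. Levels of single genes are CPM over the total of the tested genes multiplied by the TMM factor, while summed marker levels use plain totals. DESeq2 1.42.0, limma 3.58.1, other scalings, filters and leave-outs were alternatives, and the scripts were tested on simulated data. A ratio of 2 groups' counts over TMM-scaled totals has a 95% exact interval, and the floor is 3 counts over the group. Both take counts as independent, which counts gathered in few cells are not.

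The members and the 33 gene lists were chosen with earlier results of these data known. Named were Itgax, App, Prnp and Apoe, then up to 18 higher and 12 lower called genes with the largest fold change, no overlap and a level of 50 CPM or more in the higher of both groups. Called list members, up to 4 abundant and 2 lowest-p members per list and 5 interaction genes were added, leaving out predicted, mitochondrial and ribosomal protein genes among the largest folds. Which of the uncalled ones are printed was chosen after their values were seen, and 1 called gene is not reported here.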

Additional observations from a re-analysis of the deposited data

Results flagged for a closer look

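In 24 of 188 groups of 4 replicates checked, 1 replicate stood apart from the other 3 by Dixon's limit for the gap (95% level), and chance alone marks about 1 in 20 groups. Groups with a single replicate above 0 meet the limit by construction. The highest WT replicate stood apart at these levels: Prnp 1.69 CPM, Elf2 0.282 CPM, Lrif1 0.563 CPM, Med22 0.845 CPM, Slc2a8 0.918 CPM, Mtf2 1.97 CPM and Tmod3 10.1 CPM. It also did so for Ttyh2 500.3 CPM, Rcor3 417 CPM, Tmem263 558 CPM, Srrm2 4338 CPM, Cyp51 0.282 CPM, Itgax 3.66 CPM and Tmem119 2770.1 CPM. The same held for Igf1 27.5 CPM, Clec7a 0.282 CPM, Tmsb4x 2595 CPM and Rbm39 793 CPM. In APP mice the highest replicate stood apart for Lrif1 212 CPM, Qars 141 CPM, Itgax 31.8 CPM, Igf1 0.818 CPM and Ctss 3096 CPM, and the lowest for Pkm 129.7 CPM.

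For 39 named genes the genotype effect differed between hippocampus and cortex, by edgeR's test of the interaction with Benjamini-Hochberg adjustment. The hippocampal minus cortical log2 fold change was positive for Hint3 11.78, Pigq 9.74, Elf2 9.65, Lrif1 11.02, Slc2a8 7.15, Qars 6.32, Mtf2 7.32, Vps35 3.84, Cotl1 2.69 and CT010467.1 1.6003. It was negative for Tmem263 -2.92, Insig1 -2.15, Zfp317 -2.95, Sept10 -2.50, Zfp862-ps -2.30, Klhl9 -1.85, Sdc4 -2.07, Skil -1.53, Notch2 -1.29 and Maml2 -1.35. It was also negative for Adam10 -1.21, Tubb5 -1.18, Actr2 -1.27, Kmt2d -1.24, Nsd3 -1.57, Ncoa3 -1.40, Ythdf2 -1.61, Alkbh5 -1.44, Rbm15 -1.96 and Wtap -1.36. The remaining negative differences were those of Srsf2 -1.21, Srrm2 -1.04, Gm2a -1.39, Abcg1 -1.38, Picalm -0.88, Dpysl2 -1.27, Tacc1 -1.37, Mcmbp -1.76 and Ccl2 -16.04. The values of Hint3, Pigq and Ccl2 are fitted values of genes with 0 counts in 1 hippocampal group and bound no fold. With the animal as a block, the interaction was no longer past the threshold for Hint3, Pigq, Lrif1, Slc2a8, Qars, Mtf2, Vps35, Cotl1, Tmem263, Insig1, Zfp862-ps, Picalm and Ccl2, with adjusted p from 0.0502 to 0.536.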

How the results depend on the processing

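Of the 58 called genes that the naming rule chose, 0 changed direction under any alternative that gave them a value. By number of cells with a count 52 of them had one. Elf2, Insig1, Sept10 and Klhl9 kept their call under all 24. Of all 177 lower genes, 163 kept the lower sign by number of cells and 176 with TMM from genes of 500 CPM or more. The count of higher genes (49) was 648 with DESeq2, 197 with limma voom, 1208 by number of cells with a count, 185 with TMM from genes of 500 CPM or more, 11 with genes per cell as a covariate, 17 in the CD11c-negative replicates alone, 8 in the 8 replicates alone and 26 without cells carrying other types' markers. The count of lower genes (177) was 379 with DESeq2, 38 by number of cells with a count, 34 with the abundant-gene TMM, 62 with the covariate, 91 in the 8 replicates alone and 113 with raw totals. Leaving out 1 replicate gave 33 to 76 higher genes, the 76 without WT1, and 131 to 210 lower genes. The interaction (150) fell to 65 genes with the abundant-gene TMM and 12 with the covariate, and was 90 with the animal as a replicate block. The cause was not tested.

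Same-numbered APP and WT replicates did not deviate together (correlations -0.007, 1e-04, -0.0364 and -0.019 over 3430 genes), so the numbers do not pair them. With the replicate block 3 genes were higher and 66 lower.

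Uncalled genes changed sign as follows. App was -0.060 and P2ry12 -0.0090 with the covariate. Apoe was 0.17 with the abundant-gene TMM, 0.11 with voom, 0.39 by number of cells and 0.26 without WT4, with -0.75 as the lowest value among the leave-outs. Cst3 was 0.45 with the abundant-gene TMM, 0.053 after thinning and 0.080 with raw totals. Trem2 was -0.01 without APP3, -0.048 without APP4 and -0.020 without WT1, with 0.15 as the highest value among the leave-outs. Rare genes rest on few cells, so depth limits what can be called among them.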
